A study of Mus musculus with 8 samples.

Results

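Eph-ephrin, Slit-Robo and netrin genes encode the ligands and receptors of 3 guidance systems of the developing brain. The set examined here holds 33 genes, found by symbol in the count tables of 8 cortex libraries, and all 33 were present among the 23284 gene symbols counted. They fall into 8 roles: 8 EphA receptors, 5 EphB receptors, 5 ephrin-A ligands, 3 ephrin-B ligands, 2 Robo receptors, 3 Slit ligands, 5 netrin receptors and 2 netrins. RNA-seq was carried out on the dorsal cortex of C57BL/6 mouse embryos at E15.5 to ask which genes differ in expression when the receptor tyrosine kinase ErbB4 is missing. Wild type (WT, ErbB4+/+) and ErbB4 KO (ErbB4-/-) cortex were each sampled in 4 libraries, after the meninges and ganglionic eminences had been dissected away. As a model, the ErbB4 KO line lacks ErbB4 except in the heart, where an ErbB4 transgene driven by the cardiac α-MHC promoter keeps the embryos alive, and the lines were bred as homozygotes, so WT and ErbB4 KO embryos came from separate matings. The labels give neither litter, sex nor any pooling of embryos, so every p-value below measures only the spread between these 8 samples.

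Eph receptors are receptor tyrosine kinases that bind ephrins held on the surface of neighbouring cells. Ephrin-A ligands are attached by a lipid anchor and ephrin-B ligands span the membrane, and signals pass into the ligand-bearing cell as well as into the receptor-bearing cell. Slits are secreted proteins that mostly repel axons and migrating neurons through Robo receptors, whereas netrin-1 attracts through DCC and repels through UNC5 receptors. In the embryonic cortex these systems are known for sorting progenitors and migrating neurons, for patterning areas, and for steering corticofugal, callosal and thalamocortical axons.

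The libraries held 28205703 to 48871480 counted reads, and all 33 genes passed the filter on low counts that 14696 genes passed. Dorsal cortex was the dissected tissue (the labels say cortex) and its markers (Emx1, Emx2, Pax6, Eomes, Tbr1, Neurod6, Fezf2 and Bcl11b) summed to 2410 to 2730 CPM (counts scaled to the TMM-adjusted library total) in WT and 2270 to 2630 CPM in ErbB4 KO, with none of the 8 at 0. Of these, 7 had a lower and 1 a higher mean in ErbB4 KO, with a median log2 fold change of -0.12 over the 8 markers. Of all genes tested, 49.2% were higher, with a median of -0.0022. Pax6, a marker of cortical progenitors, was at 102 ± 8.51 and 84.4 ± 8.22 CPM (log2 fold change -0.27, edgeR adjusted p = 0.81). Pax6 was the only marker of the 8 called at an unadjusted p below 0.05, a threshold that 5.53% of all genes tested passed (2.52% lower in ErbB4 KO). Markers of the ganglionic eminence and interneurons, which the dissection should reduce, summed to 505 to 680 CPM in WT and 492 to 691 CPM in ErbB4 KO, with none of the 10 at 0. Markers of endothelium and pericytes summed to 171 to 191 CPM in WT and 177 to 190 CPM in ErbB4 KO, and those of the meninges to 13.1 to 15.9 and 12.6 to 20.9 CPM. Markers of red blood cells summed to 31.8 to 56.6 CPM in WT and 20.8 to 35.2 CPM in ErbB4 KO, with Hba-a1 listed at 0 in every library. Of the 4 tested, the embryonic globins Hbb-y and Hba-x were lower in ErbB4 KO at that unadjusted threshold, beside the same 2.52%. Hbb-y was at 26.6 ± 9.14 CPM in WT and 8.20 ± 6.89 CPM in ErbB4 KO (log2 fold change -1.72, edgeR adjusted p = 0.81), Hba-x at 6.24 ± 0.955 and 2.71 ± 1.63 CPM (-1.23, edgeR adjusted p = 0.74), while Alas2 was at 12.0 ± 1.11 and 13.8 ± 2.43 CPM. The part of these markers in the values of the guidance genes was not tested. Erbb4 itself was at 8.99, 19.9, 25.3 and 19.2 CPM in WT replicates 1 to 4 and at 20.9, 24.6, 20.7 and 23.5 CPM in the libraries labelled ErbB4 KO (log2 fold change 0.28, SE 0.226, edgeR adjusted p = 0.812). The gene-level count thus showed no loss of Erbb4 reads in samples carrying the KO label, and as it does not tell which exons the reads came from it is no check of the labels. WT replicates 1 to 3 had Xist at 983, 1610 and 1690 CPM, whereas WT replicate 4 and the 4 ErbB4 KO libraries had 2.70 to 3.82 CPM together with 76.4 to 80.9 CPM of the Y-linked gene Ddx3y. The sex-linked pattern and the genotype therefore overlap almost fully, and only WT replicate 4 separates them. WT replicate 1 also stood apart in the guidance genes, as described below. For members whose log2 fold change moved by over 1.5 times without it, the value without it is also given. Log2 fold changes of Erbb4, of the markers and of the further guidance genes are given only with all 8 libraries.

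Promoters of 4 of the genes are shown because the values below turn on them: Efnb2 had the highest level per length, Ephb1 had the lowest p-value between genotypes, Epha4 is the only member near Erbb4 on the chromosome, and Epha1 had the lowest level. The RefSeq table (GRCm38.p6) held promoters for 28 of the 33 genes. For the 4 shown, the 250 bases before the start site were placed on NCBIM37 (mm9) by exact match. Each had a single match on its own chromosome, the only one searched, and all were on the minus strand. They lie at chr8:8661243-8661492 for Efnb2, chr9:102257024-102257273 for Ephb1, chr1:77511664-77511913 for Epha4 and chr6:42323268-42323517 for Epha1. Sequences run 5′ to 3′ and the capitals mark each CG, which reads the same on both strands.
Efnb2: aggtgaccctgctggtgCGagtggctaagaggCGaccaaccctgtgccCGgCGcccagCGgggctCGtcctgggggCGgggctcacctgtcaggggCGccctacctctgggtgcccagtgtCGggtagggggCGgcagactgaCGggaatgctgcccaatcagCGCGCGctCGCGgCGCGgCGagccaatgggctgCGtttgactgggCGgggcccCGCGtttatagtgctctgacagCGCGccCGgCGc
Ephb1: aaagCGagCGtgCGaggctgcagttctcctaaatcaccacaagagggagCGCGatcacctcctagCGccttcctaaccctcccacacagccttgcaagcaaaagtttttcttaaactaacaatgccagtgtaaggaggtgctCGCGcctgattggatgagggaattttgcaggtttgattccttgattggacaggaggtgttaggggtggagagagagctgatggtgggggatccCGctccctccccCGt
Epha4: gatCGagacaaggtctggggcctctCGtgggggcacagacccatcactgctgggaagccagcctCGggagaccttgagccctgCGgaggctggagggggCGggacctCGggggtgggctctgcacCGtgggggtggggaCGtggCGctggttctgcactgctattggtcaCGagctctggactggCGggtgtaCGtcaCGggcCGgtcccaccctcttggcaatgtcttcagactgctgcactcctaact
Epha1: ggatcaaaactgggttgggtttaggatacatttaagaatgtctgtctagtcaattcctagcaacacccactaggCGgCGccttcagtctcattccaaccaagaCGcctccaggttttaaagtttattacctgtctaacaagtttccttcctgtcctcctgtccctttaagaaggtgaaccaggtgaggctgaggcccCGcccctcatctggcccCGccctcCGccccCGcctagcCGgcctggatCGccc
Efnb2 held 27 CG in this window, a count that 8.57% of the 32841 promoters of the table reach or exceed, while Epha4 held 14 (29.4% of promoters reach it), Ephb1 held 10 (37.8%) and Epha1 held 9 (40.3%). Over the 28 matched genes the count of CG ran from 7 to 46 with a median of 19.5, against a median of 6 over all promoters of this length, and each of the 28 was above that median. Those promoters were not limited to genes that passed the filter on low counts, as all members did, so the difference cannot be read as particular to guidance genes. Epha7, Efna1 and Efna3 had 2 starts each and Robo2 had 3, and only the first listed start was counted. The count is a description of the letters in this window and was not related to the expression values by any test.

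Ephrin-B ligands had the highest levels of the set. Levels are compared between genes only as CPM per kb of exon (RPKM), with exon lengths from GENCODE vM1. Over the 8 libraries Efnb2 averaged 89.3 ± 4.73 RPKM (SD, n = 8), Efnb3 62.8 ± 5.65 RPKM and Efnb1 57.2 ± 5.42 RPKM, followed by the receptor genes Epha4 at 45.1 ± 5.05 RPKM, Epha3 at 31.0 ± 4.01 RPKM and Epha5 at 30.0 ± 2.38 RPKM. At the other end stood Epha6 at 0.741 ± 0.182 RPKM, Epha2 at 0.473 ± 0.0884 RPKM and Epha1 at 0.119 ± 0.0526 RPKM. The highest mean was 753 times the lowest, 18 members were above 10 RPKM, 3 were below 1 RPKM, and 30 had at least 100 counts in every library. Some neighbours in this order could not be separated by their spread. Efnb3 was above Efnb1 in 5 of 8 libraries and Epha3 above Epha5 in 6 of 8, whereas Efnb2 was above Efnb3 and Epha4 above Epha3 in all 8 with no overlap of their ranges. With the longest transcript in place of the union of exons, Epha5 became the first Eph receptor at 58.2 RPKM and Robo2 moved above Robo1 at 34.3 against 28.7 RPKM, so these orders depend on the length used.

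**Figure D1:**
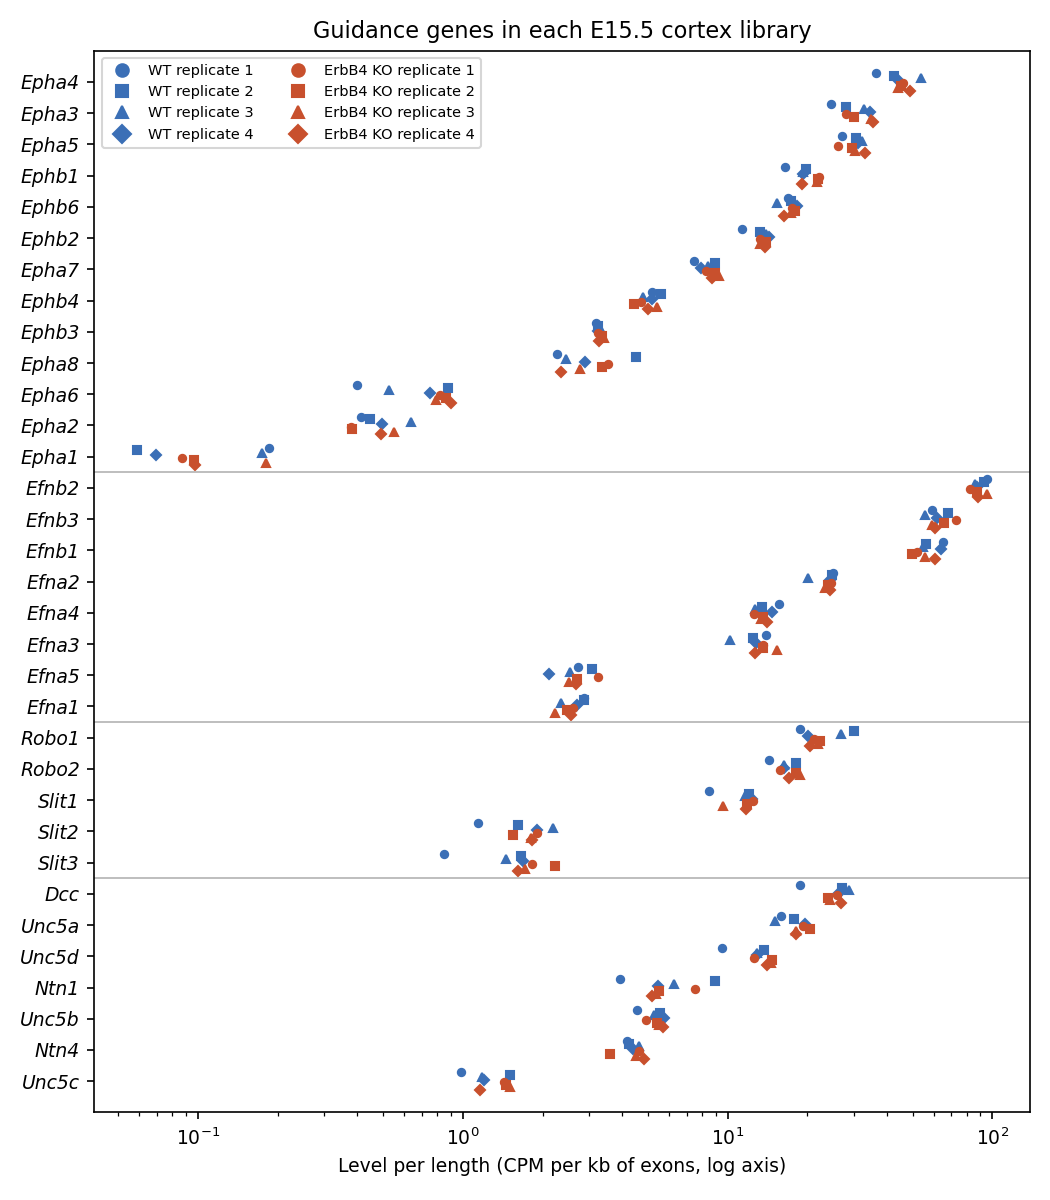
Level of each guidance gene in each library, as CPM per kb of exon on a log axis, with 1 point per library (blue WT, orange ErbB4 KO, shape by replicate) and lines between Eph receptors, ephrins, Slits and Robos, and netrins and their receptors. Efnb2 sits highest at a mean of 89.3 RPKM and Epha1 lowest at 0.119 RPKM, and the 2 genotypes overlap for every gene.

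Summed by role, ligands and receptors were present in unequal amounts. Ephrin-B RNA summed to 211 ± 10.4 RPKM in WT and 207 ± 3.27 RPKM in ErbB4 KO (SD, n = 4 each), and the EphB receptors to 57.3 ± 3.3 and 60.2 ± 1.81 RPKM, so that ephrin-B exceeded EphB by 3.30 to 4.14 times in the 8 libraries. The ephrin-A and EphA genes had the opposite order. Ephrin-A summed to 55.4 ± 5.26 RPKM in WT and 56.5 ± 0.114 RPKM in ErbB4 KO, and EphA to 117 ± 13.8 and 121 ± 6.91 RPKM, a ratio of ligand to receptor of 0.366 to 0.612. Both ratios follow the class names. They take no account of binding across the A and B classes, so they do not measure ligand against available receptor. Within the set, Robo receptors exceeded Slits by 2.28 to 3.17 times and netrin receptors exceeded netrins by 4.95 to 7.23 times. Genes outside the set, such as the netrin Ntn3 and the netrin receptor Neo1, are not in these sums. The longest transcript as length was planned for the level of each gene and was applied to the 4 ratios after seeing the data. With it the 4 ratios were 2.92 to 3.74, 0.292 to 0.479, 3.14 to 4.42 and 5.86 to 8.41. Ligand and receptor thus kept their order in each pair, and the size of the ratio depended on the length used. In each of these sums the WT and ErbB4 KO libraries overlapped, and the SD was larger in WT than in ErbB4 KO in all 8 roles, with WT replicate 1 as the lowest library in each role but the ephrins.

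No guidance gene differed between genotypes after adjustment over all genes. edgeR's quasi-likelihood test with Benjamini-Hochberg adjustment over 14696 genes called 0 of 33 members at an adjusted p below 0.05 (lowest adjusted p = 0.81), against 0.0272% of all genes tested, and DESeq2 and limma-voom also called 0, against 0.138% and 0.0272% of their genes. At an unadjusted p below 0.05 edgeR called 1 member, Ephb1, which was higher in ErbB4 KO, against 5.53% of all genes tested (3% higher and 2.52% lower). DESeq2 called 2 on that scale (Ephb1 and Slit3, against 5.1% of its genes) and limma-voom 2 (Epha6 and Ephb1, against 5.72%). In none of the 33 did all 4 libraries of a genotype lie above all 4 of the other, against 3.34% of genes tested. The fitted mean was higher in ErbB4 KO for 22 members and lower for 11, where 49.2% of genes tested were higher, with a median log2 fold change of 0.034 against -0.0022 over all genes tested and a range from -0.16 to 0.40. The largest values, 0.40 for Epha6 and 0.38 for Slit3, had standard errors of 0.208 and 0.187. The 95% interval of the log2 fold change lay within ±0.5 for 28 of the 33 members, within ±0.25 for 10 and within ±1 for 32, and 76.7% of genes tested had an interval within ±0.5. The widest interval was that of Epha1, from -1.02 to 0.85. In whole tissue, fewer cells of a type and less RNA per cell cannot be told apart.

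**Figure D2:**
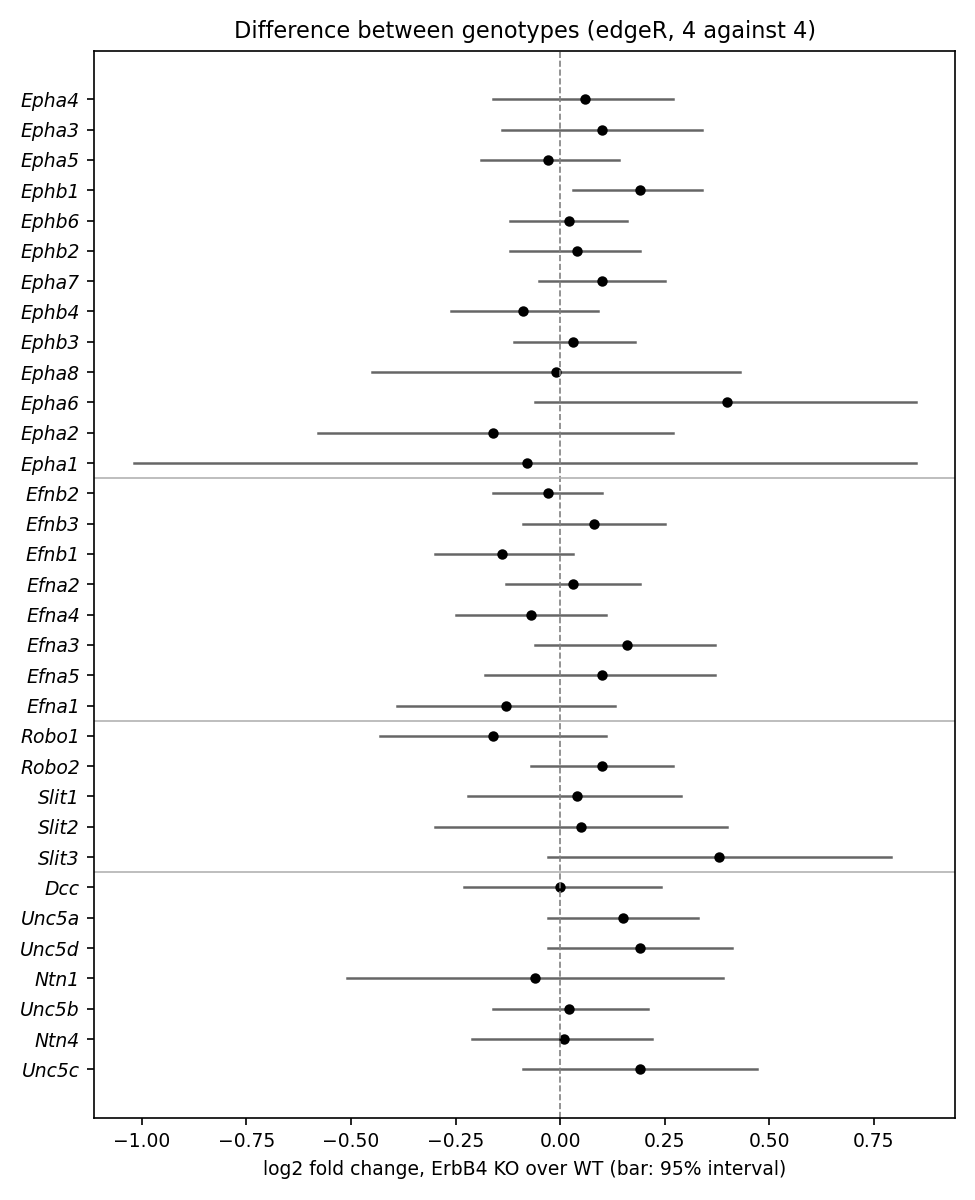
Log2 fold change of each guidance gene, ErbB4 KO over WT (point) with its 95% interval from edgeR (bar, 4 libraries against 4), genes ordered as in the plot of levels. Only the interval of Ephb1, 0.03 to 0.34, leaves out 0, and 28 of the 33 intervals lie within ±0.5.

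Among EphA receptors, Epha4, which steers motor and cortical axons and migrating interneurons, had the highest level and a similar mean in both genotypes. Epha4 (chromosome 1, 77363760 to 77511663, minus strand) lies 8.21 Mb from Erbb4 (68078760 to 69154633) and was the only member on that chromosome. It was at 229, 268, 341 and 280 CPM in WT replicates 1 to 4 and at 292, 287, 278 and 308 CPM in ErbB4 KO (log2 fold change 0.06, 95% interval -0.16 to 0.27, edgeR adjusted p = 0.899). The ErbB4 KO values lie inside the WT range, whose ends are WT replicates 1 and 3. Without WT replicate 1 the log2 fold change of Epha4 was -0.03. Without WT replicate 3 it was 0.17 (edgeR unadjusted p = 0.0458, with 5.78% of genes tested below 0.05). Epha6 (chromosome 16, 59653309 to 60605357, minus strand), an EphA receptor at low level here, was at 2.10, 4.65, 2.79 and 3.96 CPM in WT and 4.32, 4.57, 4.20 and 4.76 CPM in ErbB4 KO. Its log2 fold change was 0.40 (SE 0.208, 95% interval -0.06 to 0.85, edgeR adjusted p = 0.81, exact two-sided permutation p = 0.143). WT replicates 1 and 3 were low, WT replicate 2 lay among the ErbB4 KO libraries, and without WT replicate 1 the value was 0.24. Without WT replicate 2 the log2 fold change of Epha6 was 0.59 (edgeR unadjusted p = 0.0127, with 9.4% of genes tested below 0.05). The genotypes then did not overlap for Epha6, as for 9.53% of genes tested. Epha3, Epha5 and Epha7, receptors with graded expression across the cortex, had log2 fold changes of 0.10, -0.03 and 0.10, with the lower ends of their intervals at -0.14, -0.19 and -0.05 and the upper ends at 0.34, 0.14 and 0.25. Epha8 was at 14.3 ± 4.84 CPM in WT and 14.2 ± 2.56 CPM in ErbB4 KO (SD, n = 4 each). Epha2, better known from epithelia, was at 2.32 ± 0.46 and 2.10 ± 0.392 CPM (log2 fold change -0.16, 95% interval -0.58 to 0.27, or -0.01 without WT replicate 3 and -0.27 without ErbB4 KO replicate 3), and Epha1 at 0.40 ± 0.22 and 0.377 ± 0.142 CPM from only 6 to 23 counts a library, a depth at which the interval of Epha1 was the widest of the set. Epha1 shares 160 exon bases with Zyx and Epha6 shares 107 with Gm9017, both on the other strand.

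Ephb1 had the lowest p-value of the 33 genes. Ephb1 (chromosome 9, 101824458 to 102257023, minus strand), a receptor known for guiding retinal and callosal axons, was at 106, 128, 124 and 125 CPM in WT and at 143, 142, 141 and 124 CPM in ErbB4 KO. Of the ErbB4 KO libraries 3 lay above every WT library, and the other, replicate 4, lay within the WT range. The log2 fold change was 0.19 (SE 0.0711, 95% interval 0.03 to 0.34, edgeR p = 0.0235 unadjusted and 0.81 adjusted), and the exact two-sided permutation test over the 70 assignments of the libraries gave p = 0.114, where 0.0286 is the smallest it can give. Ephb1 ranked 357th by p-value among all genes tested. The log2 fold change was 0.13 without WT replicate 1. The unadjusted call ended without ErbB4 KO replicate 1, 2 or 3, each with a log2 fold change of 0.17, and with the Xist covariate, at 0.14. Its exons share 152 bases with a lincRNA on the other strand (Gm17708), and the unstranded reads of such a stretch cannot be told apart. The other EphB receptors varied little. Ephb3, with a coefficient of variation of 2.20% over the 8 libraries, was at 20.4 ± 0.285 CPM in WT and 20.9 ± 0.486 CPM in ErbB4 KO, the tightest of the set. Ephb2, which is needed for commissural axons, was at 167 ± 16.9 and 171 ± 5.25 CPM, and Ephb6, whose kinase domain is inactive, at 64.2 ± 4.65 and 65.1 ± 2.44 CPM. Ephb4, the receptor of venous endothelium, was at 24.0 ± 1.47 and 22.6 ± 1.92 CPM (log2 fold change -0.09, 95% interval -0.26 to 0.09).

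Ephrin-A ligands were led by Efna2, a graded ligand of visual maps. Efna2 (chromosome 10, 79642227 to 79652755, plus strand) was at 53.2, 52.9, 42.9 and 51.7 CPM in WT and at 52.4, 51.2, 49.6 and 51.9 CPM in ErbB4 KO (log2 fold change 0.03, 95% interval -0.13 to 0.19, edgeR adjusted p = 0.931). WT replicate 3 was the lowest library and the other 7 lay close together. Efna1, Efna3 and Efna4 are neighbours on chromosome 3, with gaps of 32.8 and 10.4 kb, and did not share a direction. Efna3 had a log2 fold change of 0.16 (95% interval -0.06 to 0.37, or 0.07 without WT replicate 3, its lowest library), Efna4 of -0.07 (-0.25 to 0.11) and Efna1 of -0.13 (-0.39 to 0.13). Efna3 and Efna4 share 344 and 168 exon bases with lincRNAs on the other strand. Efna5, the ephrin known for shaping thalamocortical maps, had a low level of 2.70 ± 0.345 RPKM in these libraries and a log2 fold change of 0.10 (-0.18 to 0.37), which was 0.01 without WT replicate 4 or without ErbB4 KO replicate 1 and 0.18 without WT replicate 2. GENCODE vM1 holds a second Efna5 record on the same strand that shares 2416 of the 4032 exon bases used for its length, so the level of Efna5 is uncertain where the counting could have split or dropped reads between the records.

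Ephrin-B ligands were the most abundant role. Their coefficients of variation over the 8 libraries were 5.3% for Efnb2, 9.01% for Efnb3 and 9.48% for Efnb1. Efnb2 (chromosome 8, 8617434 to 8661239, minus strand), a ligand of neurons and of arterial endothelium, was at 456, 444, 410 and 420 CPM in WT and at 393, 420, 458 and 424 CPM in ErbB4 KO. The genotypes covered nearly the same range, with a log2 fold change of -0.03 (SE 0.0599, 95% interval -0.16 to 0.10, edgeR adjusted p = 0.92). Efnb1 (X chromosome, 96331469 to 96344330, plus strand), which maintains cortical progenitors, was the only member on the X chromosome. It was at 224, 193, 189 and 221 CPM in WT and at 180, 172, 192 and 209 CPM in ErbB4 KO (log2 fold change -0.14, SE 0.0761, 95% interval -0.30 to 0.03, edgeR adjusted p = 0.81, exact two-sided permutation p = 0.171). WT replicates 1 and 4 were the highest libraries, the first with high and the second with low Xist, and with the Xist pattern as a covariate the log2 fold change was -0.23 (edgeR unadjusted p = 0.0805). Without WT replicate 3 the log2 fold change of Efnb1 was -0.18 (edgeR unadjusted p = 0.0485, with 5.78% of genes tested below 0.05). Without ErbB4 KO replicate 4 it was -0.19 (edgeR unadjusted p = 0.0307, beside 7.73%), and no other fit called Efnb1. Efnb3, a ligand at the midline that keeps corticospinal axons from crossing back, was at 194 ± 16.5 CPM in WT and 205 ± 20.1 CPM in ErbB4 KO (log2 fold change 0.08, 95% interval -0.09 to 0.25).

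No Robo or Slit gene passed the test, and their log2 fold changes ran from -0.16 for Robo1 to 0.38 for Slit3. Robo1 (chromosome 16, 72663394 to 73046340, plus strand) is a receptor through which Slits repel axons and interneurons. It was at 180, 285, 256 and 193 CPM in WT and at 203, 212, 209 and 195 CPM in ErbB4 KO (log2 fold change -0.16, 95% interval -0.43 to 0.11, edgeR adjusted p = 0.811). WT replicates 2 and 3 were high, WT replicates 1 and 4 were low, and the ErbB4 KO libraries lay between them. Its log2 fold change was -0.26 without WT replicate 1 and -0.03 without WT replicate 2. Robo2, which lies 846 kb from Robo1, was at 269 ± 26.4 CPM in WT and 288 ± 21.3 CPM in ErbB4 KO (log2 fold change 0.10, 95% interval -0.07 to 0.27).

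Slit1 (chromosome 19, 41674747 to 41818155, minus strand), the Slit mostly confined to the nervous system, made up 73.1% to 81.0% of Slit RNA per length, or 65% to 73.9% with the longest transcript as length. It was at 50.2, 70.9, 68.6 and 73.4 CPM in WT and at 74.2, 70, 56.8 and 69.2 CPM in ErbB4 KO (log2 fold change 0.04, 95% interval -0.22 to 0.29, edgeR adjusted p = 0.952). WT replicate 1 and ErbB4 KO replicate 3 were low and the other 6 lay close together. Slit3 (chromosome 11, 34934726 to 35522009, plus strand), a Slit also found outside the brain, was at 5.14, 10, 8.84 and 10.3 CPM in WT and at 11.1, 13.4, 10.4 and 9.75 CPM in ErbB4 KO. Its log2 fold change was 0.38 (SE 0.187, 95% interval -0.03 to 0.79, edgeR adjusted p = 0.81, exact two-sided permutation p = 0.114). WT replicate 1 lay far below the others, and without it the log2 fold change was 0.21. Slit2, a repellent that channels cortical axons, was at 25.8 ± 6.77 CPM in WT and 26.7 ± 2.34 CPM in ErbB4 KO.

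Netrin receptors were led by Dcc, through which netrin-1 attracts axons. Dcc (chromosome 18, 71418392 to 72510723, minus strand) was at 151, 218, 231 and 212 CPM in WT and at 209, 193, 196 and 217 CPM in ErbB4 KO (log2 fold change 0.00, 95% interval -0.23 to 0.24, edgeR adjusted p = 0.993). The means were alike although WT replicate 1 was low, and without that library the value was -0.11. Unc5d (chromosome 8, 29757189 to 30329810, minus strand), a repulsive receptor of migrating upper-layer neurons that also binds FLRT proteins, was at 85.0, 122, 116 and 116 CPM in WT and at 113, 132, 130 and 126 CPM in ErbB4 KO. Of the ErbB4 KO libraries 3 lay above every WT library, and the log2 fold change was 0.19 (SE 0.101, 95% interval -0.03 to 0.41, edgeR adjusted p = 0.81, exact two-sided permutation p = 0.114), or 0.09 without WT replicate 1. Unc5a had a log2 fold change of 0.15 (-0.03 to 0.33), Unc5b, which is also a vascular receptor, of 0.02 (-0.16 to 0.21) and Unc5c of 0.19 (-0.09 to 0.47). Unc5c was at 0.10 without WT replicate 1 and at 0.31 without WT replicate 2 (edgeR unadjusted p = 0.0211). All 4 UNC5 genes thus had a higher mean in ErbB4 KO and none passed the test, and the direction turned for Unc5b without WT replicate 1 (-0.04), without ErbB4 KO replicate 4 (-0.01), with the length trend removed (-0.02) and with the Xist covariate (-0.10), and for Unc5a with the Xist covariate (-0.05).

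Ntn1 was the most variable of the genes above 5 RPKM. Ntn1 (chromosome 11, 68022866 to 68214325, minus strand), which encodes netrin-1, was at 24.5, 56.4, 39.4 and 34.2 CPM in WT and at 47.2, 34.6, 33.6 and 32.5 CPM in ErbB4 KO (log2 fold change -0.06, SE 0.207, 95% interval -0.51 to 0.39, edgeR adjusted p = 0.957). The highest libraries were WT replicate 2, ErbB4 KO replicate 1 and WT replicate 3. These are also the 3 libraries with the most RNA of the ganglionic eminence markers, which summed to 548, 680, 660 and 505 CPM in WT and 691, 607, 492 and 585 CPM in ErbB4 KO. No other member, and 0.953% of genes tested, had these 3 libraries as its highest, and the part of ganglionic eminence tissue in the values of Ntn1 was not tested. Ntn4, a netrin of basement membranes, was at 16.3 ± 0.776 CPM in WT and 16.4 ± 2.05 CPM in ErbB4 KO. Ntn1 shares 127 exon bases with a processed transcript on its own strand.

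**Figure D3:**
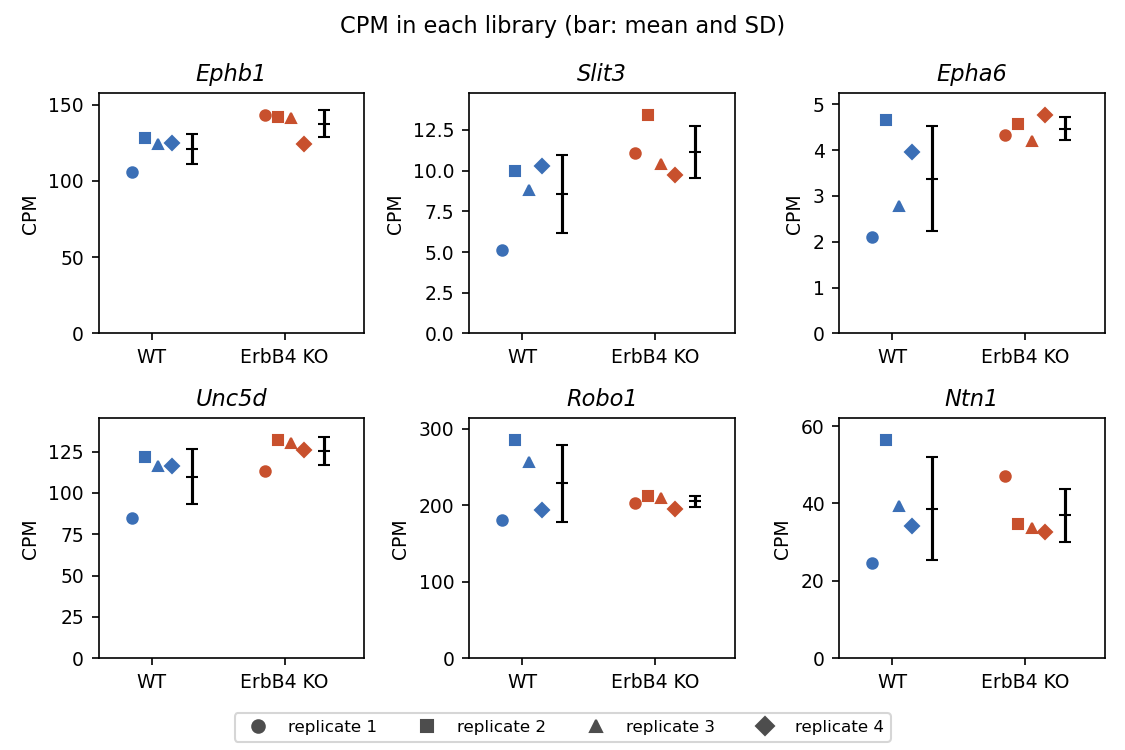
CPM of 6 guidance genes in each library (points, shape by replicate), with the mean and SD of each genotype (black bar, n = 4), on axes that start at 0. Ephb1, Slit3, Epha6 and Unc5d had their lowest value in WT replicate 1, Robo1 was high in WT replicates 2 and 3 at 285 and 256 CPM, and Ntn1 ran from 24.5 to 56.4 CPM within WT.

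WT replicate 1 had the lowest summed level of the guidance genes, and this was not particular to them. It was the lowest of the 8 libraries for 18 of the 33 members, against 29.5% of all genes tested, and the members together summed to 2950 CPM there against 3250 to 3460 CPM in the other 7. It was also the lowest for 12 of 19 further guidance ligands and receptors (sum 1790 against 2100 to 2180 CPM) and for 16 of 28 intracellular effectors (4220 against 4530 to 4600 CPM). The median deviation of the members from their own mean was -0.18 on the log2 scale in WT replicate 1 and between -0.042 and 0.064 in the others. The deviation in this library went with transcript length. Across the tested genes the Spearman correlation between the deviation and transcript length was -0.579 in WT replicate 1 and 0.0375 to 0.223 in the other 7 libraries, a description across genes, which are not replicates. The longest transcript of the members had a median of 4713 bases against 3168 for genes tested, and the part of length in the values was not tested beyond the refit below. Without WT replicate 1 the median log2 fold change of the members was -0.003 in place of 0.034, and edgeR called Ephb1, Efna3, Robo1 and Dcc at an unadjusted p below 0.05 (5.93% of the genes tested then) and 0 at an adjusted p below 0.05 (0.0404%). Log2 fold changes nearer to 0 without it included those of Epha3 (0.01), Epha7 (0.06), Robo2 (0.04), Unc5c (0.10), Efna4 (-0.02) and Efnb2 (-0.00). Values farther from 0 in the same direction included Epha5 (-0.08), Epha8 (-0.12), Efna2 (0.06) and Ntn1 (-0.22). Epha2 (-0.23), Efna3 (0.22), Efna5 (0.12) and Robo1 (-0.26) were also among them. The sign turned for Epha1 (0.15), Epha4 (-0.03), Ephb2 (-0.03), Slit1 (-0.07), Slit2 (-0.10), Dcc (-0.11), Unc5b (-0.04) and Ntn4 (-0.02).

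**Figure D4:**
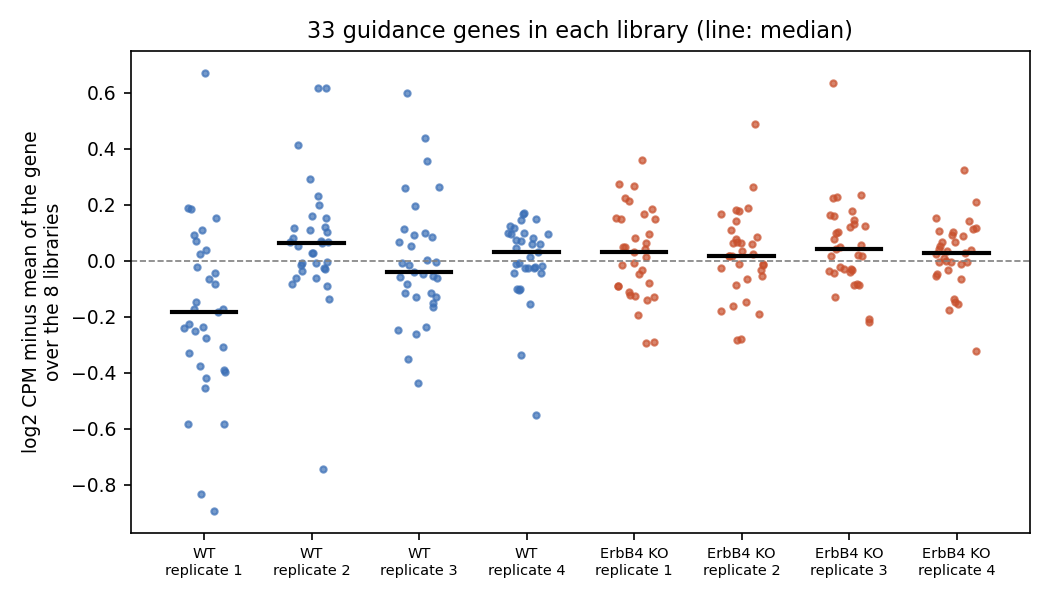
Deviation of each of the 33 guidance genes (points) from its own mean over the 8 libraries, in log2 CPM, for each library, with the median as a black line. The median is -0.18 in WT replicate 1 and between -0.042 and 0.064 in the other 7 libraries.

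With the trend on transcript length removed from each library, edgeR called Ephb1, Efna3, Robo1 and Unc5d at an unadjusted p below 0.05 (7.05% of genes tested) and 0 members at an adjusted p below 0.05 (0.0136%). With the Xist pattern as a covariate, the genotype difference rests on WT replicate 4 against the 4 ErbB4 KO libraries, with that lone library assumed to vary like the others. No member was called in that fit even at an unadjusted p below 0.05, against 1.8% of genes tested, and Ephb1 had a log2 fold change of 0.14. The values of Epha6 and Slit3 were 0.17 and 0.13 there, in place of 0.40 and 0.38, that of Robo1 was 0.09 in place of -0.16, and that of Efna5 was 0.40 in place of 0.10 (edgeR unadjusted p = 0.0534).

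Other genes of the guidance pathway were examined in the same way. Of 20 further guidance ligands, receptors and partners, 19 were tested, 15 with a higher and 4 with a lower mean in ErbB4 KO (49.2% of all genes tested were higher) and a median log2 fold change of 0.081. edgeR called 0 of them at an adjusted p below 0.05 and 0 at an unadjusted p below 0.05, against 0.0272% and 5.53% of all genes tested, shares at which few or no calls fall in a list of this size. The lowest unadjusted p-values were those of Neo1 (neogenin, a receptor of netrins and repulsive guidance molecules, log2 fold change 0.16, 95% interval -0.01 to 0.33), Ntn3 (a secreted netrin, 0.17, -0.02 to 0.36) and Gpc1 (a proteoglycan that binds Slits, -0.11, -0.24 to 0.03). Neo1 was at 276, 332, 341 and 363 CPM in WT and at 372, 382, 344 and 372 CPM in ErbB4 KO. WT replicate 1 was again the lowest. Of 28 intracellular effectors, all tested, 18 had a higher and 10 a lower mean in ErbB4 KO, beside the same 49.2%, with a median of 0.037 and a range from -0.09 to 0.12. None was called on either scale, against the same 0.0272% and 5.53%. The lowest p-values among them belonged to Rasa1 (a Ras GTPase-activating protein that acts after EphB receptors, log2 fold change 0.07, -0.04 to 0.18), Srgap2 (0.08, -0.05 to 0.22) and Srgap1 (0.12, -0.08 to 0.32), the last 2 GTPase-activating proteins that bind Robo receptors.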

How the data were processed

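RNA from E15.5 dorsal cortex of 4 WT and 4 ErbB4 KO samples was polyA-selected without strand, sequenced in single-end reads, mapped to mm9 with HISAT and counted per gene with HTSeq-count by the authors. The deposited values are raw counts per gene symbol. Versions, annotation and counting mode are not given in the sources used here. A deposited table of the authors' own DESeq2 comparison (log2 fold changes, errors and p-values) was not used.

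Genes were filtered with filterByExpr (minimum count 10, minimum total 15), scaled by TMM and tested for genotype with edgeR 4.0.16 (R 4.3.3, quasi-likelihood F test), with Benjamini-Hochberg adjustment over all 14696 genes tested. The SE is the log2 fold change divided by the square root of F. CPM used the TMM-scaled library sizes, and the log2 CPM used a prior count of 2. RPKM is CPM per kb of the exon union from GENCODE vM1 on NCBIM37. The script was tested on simulated data. The members, lists and rules were chosen with earlier results of these data known. Values in every library are given for the 5 members with the lowest p, the highest per length in each of 8 roles, and those within 20 Mb of Erbb4 or on the X chromosome. From the other lists the 3 lowest p each are named. A marker of the dorsal cortex list is not reported here and was left out of its sum. Alternatives were DESeq2 1.42.0, limma-voom 3.58.1, other scalings, filters and thresholds, a replicate block, the Xist pattern, a length trend and leaving out each library.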

Additional observations from a re-analysis of the deposited data

Results flagged for a closer look

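Each gene was examined for a library far from the other 3 of its genotype, and 4 of the 66 groups of 4 libraries held one, where chance gives about 1 in 20. Epha1 was at 0.589 CPM in ErbB4 KO replicate 3, against 0.284 to 0.318 CPM in the other 3. Ephb1 was at 124 CPM in ErbB4 KO replicate 4, against 141 to 143 CPM. Efna2 was at 42.9 CPM in WT replicate 3, against 51.7 to 53.2 CPM. Ntn1 was at 47.2 CPM in ErbB4 KO replicate 1, against 32.5 to 34.6 CPM. None of the 4 fell on WT replicate 1.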

How the results depend on the processing

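No member passed an adjusted p of 0.05 under any alternative (lowest 0.429, without ErbB4 KO replicate 4), nor 0.1 in the edgeR fit, and over 560 pairs of a member and an alternative 510 kept their direction and their side of the threshold and 50 turned, with 16 members never turning. The count at an unadjusted p below 0.05 was 1 in the edgeR fit, against 5.53% of genes tested. It was 2 with DESeq2 (against 5.1%), 2 with limma-voom (5.72%) and 2 without a filter (5.42%). It was 4 with the length trend removed (7.05%) and 0 with the Xist covariate (1.8%). When single libraries were left out it was 0 to 5. Without WT replicates 1 to 4 it was 4, 5, 3 and 3, against 5.93%, 9.4%, 5.78% and 4.95% of genes tested. Without ErbB4 KO replicate 4 it was 2, against 7.73%. It was 0 without ErbB4 KO replicates 1, 2 or 3, against 3.63%, 2.9% and 3.43%, with Ephb1 at 0.17 in all 3 fits in place of 0.19. Of the further guidance genes, 0 were called in the edgeR fit, against 5.53% of genes tested. DESeq2 and no filter gave 1 each (Ntn5, at 0 to 0.284 CPM), against 5.1% and 5.42%. Upper-quartile scaling (Neo1) and the Xist covariate (Epha10) also gave 1 each, against 5.5% and 1.8%. Leaving out libraries gave 0 to 2 of them, against 2.9% to 9.4%. Members without overlap, 0 with all libraries, numbered 0 to 2 (2 without ErbB4 KO replicate 4, Ephb1 and Slit3, against 9.97% of genes tested). The causes were not tested.

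Replicate numbers did not pair the samples (correlations of same-numbered deviations 0.0837, 0.135, 0.0476 and 0.0236, with the best match on the own number in 2 of 4), and the replicate block gave 4 members (Epha6, Ephb1, Slit3 and Unc5d) and 1 further guidance gene (Neo1) at an unadjusted p below 0.05, against 6.97% of genes tested, with Epha8 at a log2 fold change of 0.02.

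Log2 fold changes whose direction turned were Epha1 0.01, Epha8 0.04 and Ntn4 -0.0027 with limma-voom, and Ephb2 -0.07, Slit2 -0.01, Dcc -0.03 and Unc5b -0.02 with the length trend removed. With the Xist covariate they were Epha1 0.72, Epha3 -0.11, Epha8 0.06, Ephb2 -0.07, Ephb6 -0.09, Efna2 -0.01, Efnb2 0.01, Robo1 0.09, Slit1 -0.12, Slit2 -0.10, Dcc -0.06, Unc5a -0.05, Unc5b -0.10, Ntn1 0.12 and Ntn4 -0.0048. Leaving out libraries gave Epha1 -0.39 to 0.17, Epha4 -0.03 to 0.17, Epha5 -0.08 to 0.03, Epha8 -0.12 to 0.25, Ephb2 -0.03 to 0.08, Ephb6 -0.02 to 0.06, Efna2 -0.04 to 0.06, Efnb2 -0.07 to 0.01, Slit1 -0.07 to 0.11, Slit2 -0.10 to 0.19, Dcc -0.11 to 0.07, Unc5b -0.04 to 0.07, Ntn1 -0.22 to 0.18 and Ntn4 -0.05 to 0.09. Without turning, leaving out libraries moved Epha2 between -0.27 and -0.01, Epha3 between 0.01 and 0.18, Ephb4 between -0.14 and -0.04, Efna1 between -0.19 and -0.08, Efna3 between 0.07 and 0.22, Efna4 between -0.12 and -0.02, Efna5 between 0.01 and 0.18, Efnb3 between 0.01 and 0.13, Robo1 between -0.26 and -0.03, Robo2 between 0.04 and 0.16, Unc5a between 0.09 and 0.22 and Unc5c between 0.10 and 0.31. Epha6 moved between 0.24 and 0.59, Slit3 between 0.21 and 0.48 and Unc5d between 0.09 and 0.25.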
